A study of Mus musculus with 8 samples.

Results

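The genes described here were 10 transcription factors that mark or specify the cells of the collecting duct, namely Foxi1, Dmrt2, Hmx2, Tfcp2l1, Gata3, Gata2, Elf5, Elf3, Ehf and Grhl2. They were chosen by symbol as known factors of intercalated and principal cells, and all 10 were found among the 30587 genes of the count table and passed the filter on low counts, as did 18048 genes in all. Kidney RNA of mice at 28 days of age was compared between 4 libraries of WT mice on the C57BL/6 background (WT 1 to 4) and 4 libraries of Tsc1-KO mice (Tsc1f/f/Aqp2 Cre, Tsc1-KO 5 to 8). In the latter a Cre recombinase driven by Aqp2, the vasopressin-regulated water channel of principal cells, removes floxed alleles of Tsc1, the gene of the mTORC1 inhibitor hamartin, from principal cells. RNA was taken from total kidney, so cells without the deletion contributed to every Tsc1-KO library.

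The collecting duct holds principal cells, which reabsorb sodium and water, and intercalated cells, which secrete acid (A-type) or bicarbonate (B-type) and arise with principal cells from common precursors. FOXI1 is required for intercalated cells to form and switches on their proton pump and anion exchanger genes, whereas Notch signaling and factors such as ELF5 and the GATA proteins favor or maintain principal cells. TFCP2L1 and GRHL2 act in both cell types, the former in their patterning and the latter in the tightness of the epithelium.

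Among the 10 factors, 3 were called higher in Tsc1-KO kidneys and 0 were called lower at an edgeR adjusted p under 0.05. At an unadjusted p under 0.05 these counts were 6 and 1, but the share of all genes at that threshold was not counted. DESeq2 and limma-voom also called 0 lower. Dmrt2 was 5.68-fold, Foxi1 3.82-fold and Gata3 1.66-fold higher, while the 95% intervals of Elf5, Gata2 and Ehf included no change. Over all tested genes 3.5% were called higher and 1.16% lower at an edgeR adjusted p under 0.05. All 4 Tsc1-KO libraries lay above all 4 WT libraries for 5 factors (Foxi1, Dmrt2, Tfcp2l1, Gata3 and Grhl2), a pattern seen in 7.09% of tested genes, and below them for 1 factor (Hmx2), a pattern seen in 4.4%. The median log2 change of the 10 factors was 0.46, against 0.00485 over all tested genes. The number called depended on the method: DESeq2, and scaling by library totals alone, each called 6 factors higher, adding Tfcp2l1, Elf3 and Grhl2. Over all 18048 tested genes, DESeq2 called 1011 higher and library totals 904, against 632 with edgeR and TMM scaling. Because kidney was measured in bulk, more or fewer cells of a type and more or less RNA per cell cannot be told apart in any of these values.

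**Figure D1:**
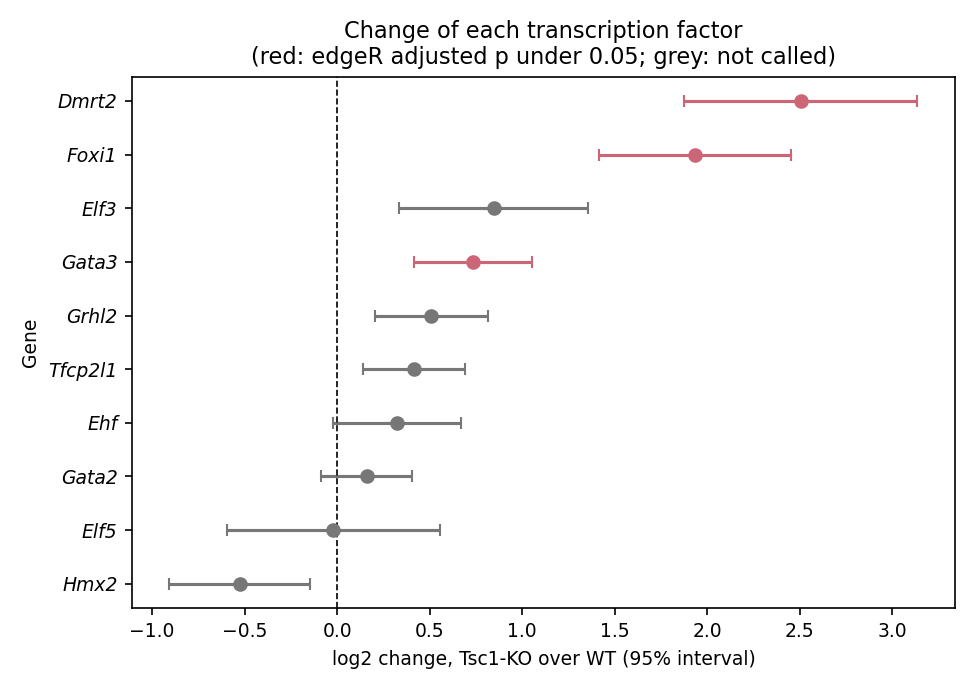
Log2 change of each transcription factor in Tsc1-KO over WT kidneys (horizontal axis), with its 95% interval from the edgeR fit, ordered by size; red points had an adjusted p under 0.05 and grey points did not. Dmrt2, Foxi1 and Gata3 are red, and Hmx2 is the lowest at -0.53.

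The 8 libraries held 26453073 to 31226739 counts each, with TMM factors of 0.961 to 0.979 for WT and 1.01 to 1.05 for Tsc1-KO. Y-linked reads were present in WT 3, WT 4, Tsc1-KO 7 and Tsc1-KO 8 (3945 to 6001 reads) and nearly absent elsewhere (0 to 8 reads), so each genotype held 2 libraries of either kind. Tsc1 itself had a log2 change of -0.05 (edgeR adjusted p = 0.933), and 0.04 with library totals. Its count covers the whole gene, so the value does not test the deletion, which is limited to principal cells. Levels are given as TMM-scaled counts per 1000000 (CPM), and changes as log2 of Tsc1-KO over WT with the SE from the edgeR quasi-likelihood fit and an adjusted p over all 18048 genes. Positions are those of the count table, which for all but Dmrt2 equal the GRCm38 annotation. The labels do not say that libraries came from separate mice, and p-values therefore reflect the spread among libraries. No pair of libraries agreed within counting noise (smallest chi-square per degree of freedom 23.9).

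The sequence before the start of the 3 genes that were called is shown first, because all 3 were higher in the same kidneys. RefSeq windows on GRCm38.p6 were found for 8 of the 10 genes, with none for Ehf and Grhl2. Each stretch below is the 250 bases 5′ of the annotated start, read 5′ to 3′ on the strand of the gene, at chr11:34208090-34208339 (minus strand) for Foxi1, chr19:25672161-25672410 (plus strand) for Dmrt2 and chr2:9878601-9878850 (minus strand) for Gata3. Capitals mark matches to any of the letters searched.
Foxi1: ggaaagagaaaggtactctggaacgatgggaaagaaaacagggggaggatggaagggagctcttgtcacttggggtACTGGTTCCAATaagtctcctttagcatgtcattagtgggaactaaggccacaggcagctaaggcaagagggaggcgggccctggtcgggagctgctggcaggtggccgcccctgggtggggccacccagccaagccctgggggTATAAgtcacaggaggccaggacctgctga
Dmrt2: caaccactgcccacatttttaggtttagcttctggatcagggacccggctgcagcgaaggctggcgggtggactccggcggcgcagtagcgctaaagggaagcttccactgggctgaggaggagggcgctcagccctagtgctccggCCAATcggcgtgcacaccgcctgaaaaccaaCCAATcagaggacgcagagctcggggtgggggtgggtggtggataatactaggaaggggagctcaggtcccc
Gata3: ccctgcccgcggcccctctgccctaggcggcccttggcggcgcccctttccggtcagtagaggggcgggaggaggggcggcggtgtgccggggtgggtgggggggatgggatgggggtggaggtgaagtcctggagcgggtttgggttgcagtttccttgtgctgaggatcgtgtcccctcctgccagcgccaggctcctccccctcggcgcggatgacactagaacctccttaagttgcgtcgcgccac

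On both strands of the 300-base windows (250 bases before to 50 after a start), 6 sets of letters were searched: TAAACA for forkhead factors, AGATAA for GATA factors, CGGAAG for ETS factors, ACNGGTT for grainyhead factors, TATAA for the TATA box and CCAAT for the CCAAT box. The last 2 sets were added after the sequences had been seen. The Foxi1 stretch holds ACTGGTT at position -174 from the start, directly followed by CCAAT at -167, and TATAA at -30. The Dmrt2 stretch holds CCAAT at -103 and -72, and the Gata3 stretch holds no match, so no set of letters was found in all 3 genes. Across the 11 windows of 8 genes, the grainyhead letters were found in 1, TATAA in 4 and CCAAT in 5, against 8.43%, 24.9% and 37.4% of all 32851 mouse windows. TATAA also stood at -29 in a window of Hmx2 and at -28 in that of Tfcp2l1. The forkhead, GATA and ETS letters, present in 13.4%, 11.2% and 16.9% of all windows, were in 0 of the 11. Windows of the called genes were rich in GC, at 60.3% for Foxi1, 62.7% for Dmrt2 and 67.3% for Gata3 against a median of 52.7%. The windows found for factors that were not called also lay above this median, except for a window of Hmx2. Among them were Tfcp2l1 at 65.3% and a window of Gata2 at 73.7%, so GC did not set the called genes apart. Windows of the called genes differed in CpG, with 6 in Foxi1, 18 in Dmrt2 and 22 in Gata3 against a median of 7. A match describes the letters in a window and is not a binding site.

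Foxi1 (ENSMUSG00000047861, chromosome 11, 34204338 to 34208089, minus strand) encodes the forkhead factor that specifies intercalated cells. Its level was 49.8, 41.8, 29.3 and 38.3 CPM in WT 1 to 4 and 149, 208, 93.7 and 158 CPM in Tsc1-KO 5 to 8. The lowest Tsc1-KO library, Tsc1-KO 7, was above the highest WT library, WT 1. The mean went from 39.8 ± 8.48 to 152 ± 46.8 CPM (SD, n = 4 each), a log2 change of 1.93 (SE 0.23, 95% interval 1.42 to 2.45, edgeR adjusted p = 0.00127). The call was kept in all 8 fits that left out 1 library.

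Dmrt2 (ENSMUSG00000048138, chromosome 19, 25672420 to 25679010, plus strand) encodes a factor of the doublesex family that is found in A-type intercalated cells and also acts in somite development. It had 8.88, 6.12, 5.14 and 7.68 CPM in WT 1 to 4 and 35.5, 57.8, 22.1 and 42.7 CPM in Tsc1-KO 5 to 8. Both genotypes were far apart and their order within each genotype followed that of Foxi1 at the ends: Tsc1-KO 6 was highest and Tsc1-KO 7 lowest, and WT 1 was highest and WT 3 lowest. The mean rose from 6.96 ± 1.65 to 39.5 ± 14.9 CPM (SD, n = 4 each), a log2 change of 2.51 (SE 0.28, 95% interval 1.87 to 3.14, edgeR adjusted p = 0.00094), and the call was kept in all 8 fits without 1 library. Among 1064 tested genes annotated as transcription factors, Dmrt2 had the third largest log2 change (rank 3) and Foxi1 rank 8.

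Within the 4 libraries with Y-linked reads alone, 2 for each genotype, the log2 change was 1.90 for Foxi1 (edgeR adjusted p = 0.0708) and 2.34 for Dmrt2 (adjusted p = 0.104), so neither passed there although the sizes were close to those of all 8 libraries.

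Hmx2 (ENSMUSG00000050100, chromosome 7, 131548773 to 131558014, plus strand) encodes a homeobox factor of the inner ear that is also found in A-type intercalated cells. It had 20.5, 15.2, 15.5 and 14.0 CPM in WT 1 to 4 and 8.68, 12.9, 10.7 and 13.0 CPM in Tsc1-KO 5 to 8. Every Tsc1-KO library was below every WT library, with WT 4 and Tsc1-KO 8 close to each other. The log2 change was -0.53 (SE 0.17, 95% interval -0.91 to -0.15), and it did not pass the test over all genes (edgeR adjusted p = 0.123). None of 18 alternative fits called it, with adjusted p between 0.0513 and 0.671. Its direction, opposite to that of Foxi1 and Dmrt2, was the same in all of these fits. The gene lies on the other strand inside the interval of the fibroblast growth factor receptor gene Fgfr2, which rose from 26.6 ± 1.91 to 59.7 ± 10.6 CPM (SD, n = 4 each, edgeR adjusted p = 0.000797), but the annotated exons of both genes share no base.

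**Figure D2:**
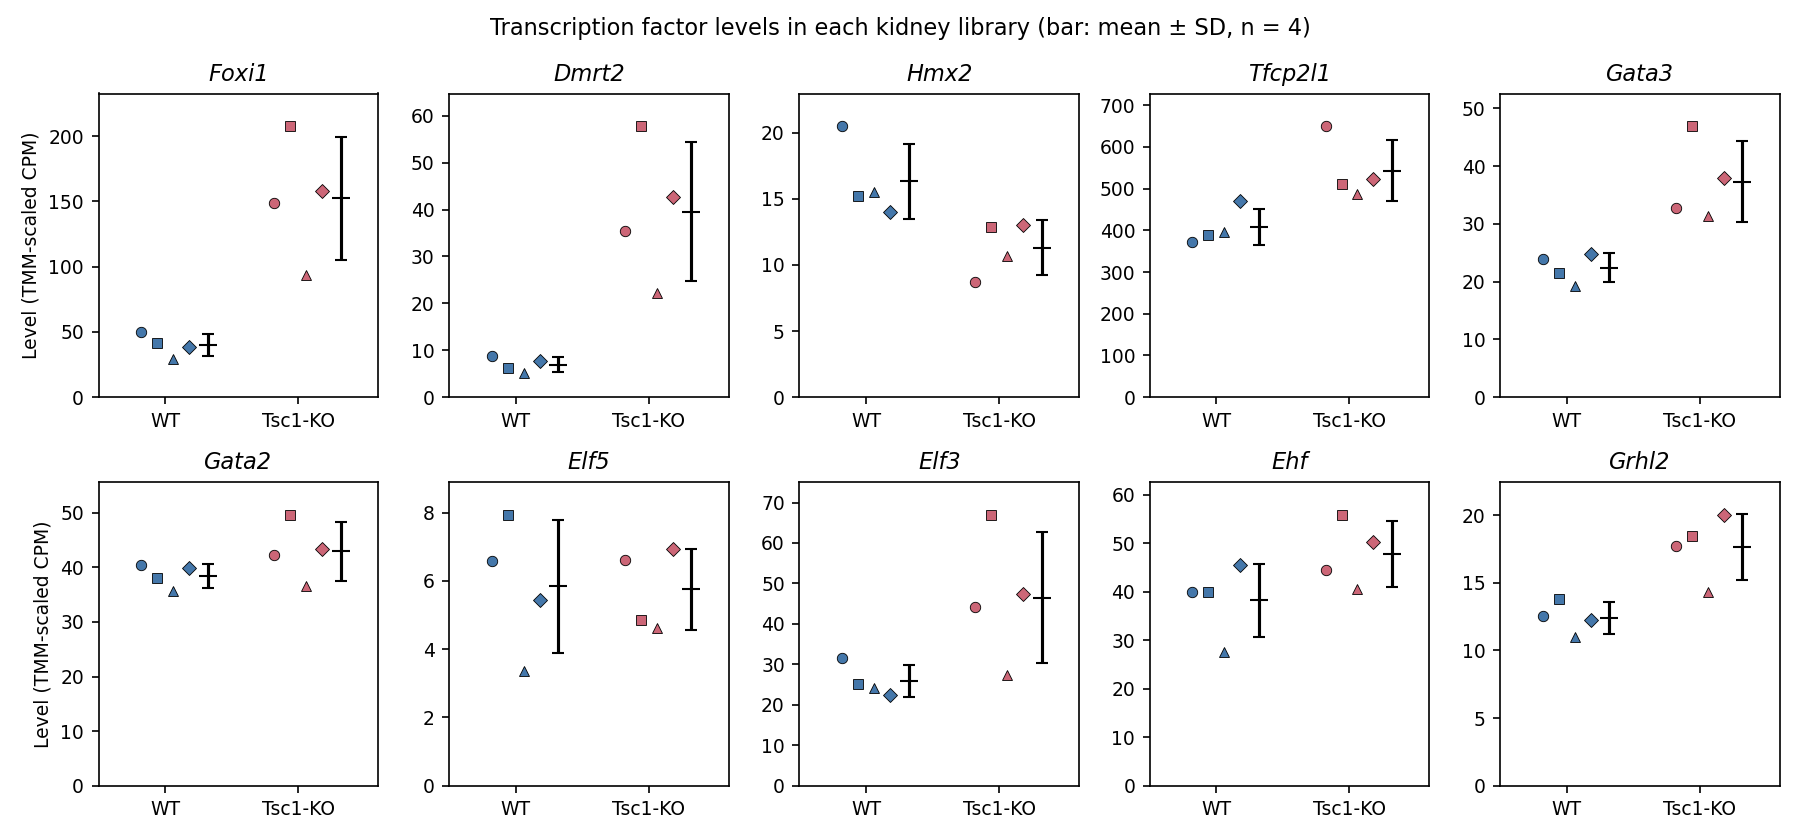
Level of each of the 10 transcription factors (vertical axis, TMM-scaled CPM from 0) in the 4 WT libraries (blue) and the 4 Tsc1-KO libraries (red), with circle, square, triangle and diamond for WT 1 to 4 and Tsc1-KO 5 to 8 in order and a bar for mean ± SD. The genotypes do not overlap for Foxi1, Dmrt2, Hmx2, Tfcp2l1, Gata3 and Grhl2 and overlap for Gata2, Elf5, Elf3 and Ehf.

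Tfcp2l1 (ENSMUSG00000026380, chromosome 1, 118627945 to 118685168, plus strand) encodes the CP2-family factor needed for the mixed pattern of principal and intercalated cells. It had 373, 389, 397 and 471 CPM in WT 1 to 4 and 650, 512, 487 and 523 CPM in Tsc1-KO 5 to 8. The genotypes did not overlap, but WT 4 and Tsc1-KO 7 were close, and Tsc1-KO 5 rather than Tsc1-KO 6 was highest. The mean was 407 ± 43.5 CPM for WT against 543 ± 73.2 CPM for Tsc1-KO (SD, n = 4 each), a log2 change of 0.41 (SE 0.13, 95% interval 0.14 to 0.69) that did not pass (edgeR adjusted p = 0.0966). It passed in 2 of 18 alternatives, with DESeq2 (log2 change 0.40, adjusted p = 0.0388) and with library totals (0.50, adjusted p = 0.038).

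Grhl2 (ENSMUSG00000022286, chromosome 15, 37233036 to 37363569, plus strand) encodes the grainyhead factor that drives tight junction genes of collecting duct epithelium. It had 12.5, 13.8, 11.0 and 12.2 CPM in WT 1 to 4 and 17.7, 18.5, 14.3 and 20.0 CPM in Tsc1-KO 5 to 8, again without overlap and with Tsc1-KO 7 nearest to WT. The log2 change was 0.51 (SE 0.14, 95% interval 0.21 to 0.81, edgeR adjusted p = 0.0649), from 12.4 ± 1.15 to 17.6 ± 2.41 CPM (SD, n = 4 each). Grhl2 passed without Tsc1-KO 7 (0.60, adjusted p = 0.0255), with DESeq2 (0.49, adjusted p = 0.0231) and with library totals (0.60, adjusted p = 0.0327). Of 8613 annotated exonic bases, 169 (1.96%) are shared with the antisense gene Gm16136, which had 5.82 CPM for WT against 9.36 CPM for Tsc1-KO. The sources used here do not state whether strand was used in counting.

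Of 12 genes for the epithelial barrier that GRHL2 is known to act on, 1 rose and 1 fell, with a median log2 change of 0.37. DESeq2 called 3 higher and 1 lower, and limma-voom called 0 in either direction. The claudin gene Cldn4 rose from 26.9 ± 2.93 to 73.5 ± 32.0 CPM (SD, n = 4 each, log2 change 1.45, edgeR adjusted p = 0.0283). Prss8, which encodes the channel-activating protease prostasin, fell from 473 ± 82.8 to 320 ± 35.8 CPM (SD, n = 4 each, log2 change -0.57, edgeR adjusted p = 0.0474).

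Gata3 (ENSMUSG00000015619, chromosome 2, 9857078 to 9890034, minus strand) encodes a zinc finger factor of the nephric duct and ureteric bud that persists in the collecting duct. It had 24.0, 21.6, 19.3 and 24.9 CPM in WT 1 to 4 and 32.7, 47.0, 31.4 and 38.0 CPM in Tsc1-KO 5 to 8. The genotypes did not overlap, and Tsc1-KO 6 stood above the other Tsc1-KO libraries. The mean rose from 22.4 ± 2.50 to 37.3 ± 7.04 CPM (SD, n = 4 each), a log2 change of 0.73 (SE 0.14, 95% interval 0.41 to 1.05, edgeR adjusted p = 0.0158). The call was lost without WT 2 (adjusted p = 0.0584) and without WT 3 (adjusted p = 0.0661), and within only 4 libraries, with Y-linked reads (0.65, adjusted p = 0.293) or without them (0.79, adjusted p = 0.145). The RefSeq start used above lies inside the gene interval of the count table, which also overlaps the antisense gene Gm13256 by 155 exonic bases (3.9% of those of Gata3) and the gene 9230102O04Rik by 77 (1.94%).

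Gata2 (ENSMUSG00000015053, chromosome 6, 88193891 to 88207032, plus strand) encodes the related GATA factor that maintains Aqp2 expression in principal cells and is also present in endothelial and blood cells. It had 40.4, 38.0, 35.6 and 39.8 CPM in WT 1 to 4 and 42.2, 49.7, 36.6 and 43.3 CPM in Tsc1-KO 5 to 8. Tsc1-KO 7 lay within the WT range and the other 3 Tsc1-KO libraries above it. The log2 change was 0.16 (SE 0.11, 95% interval -0.09 to 0.40, edgeR adjusted p = 0.523). Endothelial markers overlapped between genotypes, with 0 of 9 called by edgeR, DESeq2 or limma-voom, 0 at an unadjusted edgeR p under 0.05, and a summed level of 605 to 645 CPM for WT against 533 to 687 CPM for Tsc1-KO. Of 8 mast cell and basophil markers 2 were tested and 0 called by the same tools (1 lower at an unadjusted p under 0.05), with summed levels of 11.4 to 22.2 CPM for WT against 5.78 to 14.1 CPM for Tsc1-KO. T cells express Gata3, and 2 of 7 tested T cell markers rose (3 with DESeq2, 1 with limma-voom), Cd8b1 (log2 change 2.27, edgeR adjusted p = 0.0358) and Trac (1.18, adjusted p = 0.0424). Of the 7 changes 6 were positive. Cd8b1 was low, at 0.178 CPM for WT, and Cd8a went the other way (-0.58, edgeR adjusted p = 0.438). The list of 10 T cell markers summed to 6.66 to 10.3 CPM for WT against 10.4 to 21.3 CPM for Tsc1-KO. The part of T cells in the level of Gata3 was not tested.

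Elf5 (ENSMUSG00000027186, chromosome 2, 103411688 to 103450989, plus strand) encodes an ETS factor that is restricted to principal cells within the kidney and drives their genes. It had 6.59, 7.95, 3.37 and 5.44 CPM in WT 1 to 4 and 6.61, 4.85, 4.62 and 6.94 CPM in Tsc1-KO 5 to 8. The genotypes overlapped throughout, and the WT libraries alone spanned both ends of the range. The log2 change was -0.02 (SE 0.26, 95% interval -0.60 to 0.55, edgeR adjusted p = 0.983), and its sign turned with the setting, to 0.07 with library totals and 0.03 with limma-voom. Between 91 and 218 reads per library fell on Elf5.

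Elf3 (ENSMUSG00000003051, chromosome 1, 135253575 to 135258568, minus strand) encodes an epithelial ETS factor that responds to inflammatory signals. It had 31.7, 25.2, 24.2 and 22.4 CPM in WT 1 to 4 and 44.2, 67.0, 27.4 and 47.3 CPM in Tsc1-KO 5 to 8. Tsc1-KO 7 lay below WT 1, and the other 3 Tsc1-KO libraries lay above all WT libraries. The mean was 25.9 ± 4.03 CPM for WT against 46.5 ± 16.2 CPM for Tsc1-KO (SD, n = 4 each), a log2 change of 0.84 (SE 0.23, 95% interval 0.33 to 1.35) with an edgeR adjusted p of 0.0691. It passed without Tsc1-KO 7 (1.03, adjusted p = 0.00399), with DESeq2 (0.83, adjusted p = 0.012), with a term for Y-linked reads (0.82, adjusted p = 0.0285) and with library totals (0.94, adjusted p = 0.0436). Its estimate exceeded that of Gata3, which was called, and so did its SE. The antisense gene Gm26642, at 2.30 CPM for WT against 1.83 CPM for Tsc1-KO, shares 162 of the 2217 exonic bases of Elf3 (7.31%).

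Of 9 tubule injury genes 3 rose (4 with DESeq2, 1 with limma-voom), among them Lcn2, from 2.67 ± 0.613 to 19.6 ± 12.4 CPM (SD, n = 4 each, log2 change 2.87, edgeR adjusted p = 0.0292). Among Tsc1-KO libraries, Tsc1-KO 6 was highest and Tsc1-KO 7 lowest for Elf3, and likewise for Foxi1, Dmrt2, Gata3, Gata2 and Ehf. The summed level of the list was also highest in Tsc1-KO 6 (4810 CPM). Among Tsc1-KO libraries it was lowest in Tsc1-KO 7 (1522 CPM), against 853 to 1995 CPM in WT. Most of this sum was Spp1, which was not called (means of 1183 CPM for WT and 2876 CPM for Tsc1-KO, edgeR adjusted p = 0.157). Of the 9 changes 8 were positive, and Havcr1 was level at 28.9 CPM in both genotypes. Urothelial markers, from an epithelium that also expresses Elf3, Ehf and Grhl2, summed to 30.5 to 72.4 CPM for WT against 41.4 to 134 CPM for Tsc1-KO, with 0 of 8 called by edgeR, DESeq2 or limma-voom, 1 higher at an unadjusted edgeR p under 0.05 and all 8 changes positive. The part of either list in the levels of these factors was not tested.

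Ehf (ENSMUSG00000012350, chromosome 2, 103263433 to 103303278, minus strand) encodes a further epithelial ETS factor and is the nearest protein-coding gene on the lower-coordinate side of Elf5, 108409 bases away. It had 40.0, 39.9, 27.6 and 45.4 CPM in WT 1 to 4 and 44.5, 55.9, 40.5 and 50.3 CPM in Tsc1-KO 5 to 8. WT 4 lay within the Tsc1-KO range. The log2 change was 0.32 (SE 0.16, 95% interval -0.02 to 0.67, edgeR adjusted p = 0.328).

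Across the 10 factors, Tsc1-KO 7 was the lowest Tsc1-KO library for 9 (Tsc1-KO 5 for Hmx2), and Tsc1-KO 6 was the highest for 6. WT 3 was the lowest WT library for 7. For the 3 called genes, Tsc1-KO 7 was above the WT mean by 1.23 on the log2 scale for Foxi1, 1.67 for Dmrt2 and 0.49 for Gata3, and Tsc1-KO 6 by 2.38, 3.05 and 1.07. Tsc1-KO 7 also had the lowest summed level of A-type intercalated cell genes among the Tsc1-KO libraries and the highest of proximal tubule markers.

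**Figure D3:**
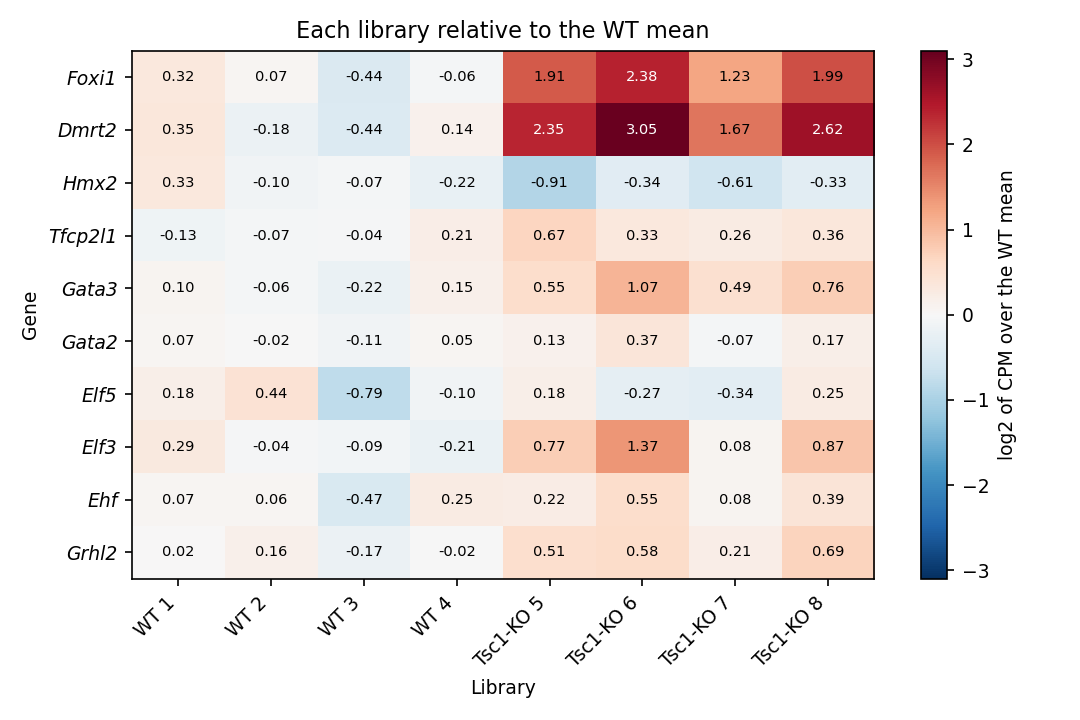
Log2 of the CPM in each library over the WT mean, for the 10 transcription factors (rows) in the 8 libraries (columns), with the value printed in each cell and red above and blue below the WT mean. Tsc1-KO 6 holds the highest values of Foxi1 (2.38) and Dmrt2 (3.05), and Hmx2 is below 0 in all 4 Tsc1-KO libraries.

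To compare factors without scaling between libraries, the log2 ratio of the counts of a pair of genes was taken within each library. Foxi1 to Gata3, an intercalated cell factor against a duct factor, was 1.05, 0.95, 0.60 and 0.62 in WT 1 to 4 and 2.19, 2.15, 1.57 and 2.06 in Tsc1-KO 5 to 8. The difference of the means was 1.18 (0.81 ± 0.23 against 1.99 ± 0.28, SD, n = 4 each, exact permutation p = 0.0286), so Foxi1 gained 2.27-fold on Gata3 although both were called higher. Foxi1 to Tfcp2l1 went from -3.37 ± 0.39 to -1.88 ± 0.47, a difference of 1.49 or 2.81-fold (n = 4 each, exact permutation p = 0.0286). Gata3 to Gata2, the pair of GATA factors, went from -0.78 ± 0.09 to -0.21 ± 0.12, a difference of 0.57 or 1.48-fold (n = 4 each, exact permutation p = 0.0286). Gata2 still exceeded Gata3 in counts in all 8 libraries, but counts are not scaled by gene length. By length-scaled FPKM, Gata3 lay below Gata2 in every WT library (means 5.65 against 7.13). It lay above Gata2 in every Tsc1-KO library (9.26 against 7.86).

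Dmrt2 to Hmx2, the pair of further A-type factors, differed most. It was -1.21, -1.31, -1.59 and -0.87 in WT 1 to 4 and 2.03, 2.16, 1.05 and 1.71 in Tsc1-KO 5 to 8, so that Hmx2 had more counts than Dmrt2 in all 4 WT libraries and fewer in all 4 Tsc1-KO libraries. The difference of the means was 2.98, or 7.90-fold (-1.24 ± 0.30 against 1.74 ± 0.50, SD, n = 4 each, exact permutation p = 0.0286). Every Tsc1-KO library already lay above every WT library for Dmrt2 and below for Hmx2. The p of this ratio was therefore fixed by those levels and adds no support to them. The 2-sided p of 0.0286 is the smallest that 4 against 4 libraries allow, and it was the same after adjustment over the 4 ratios. For each of the 4 ratios the genotypes did not overlap. The pairs were chosen with earlier results of these data known.

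**Figure D4:**
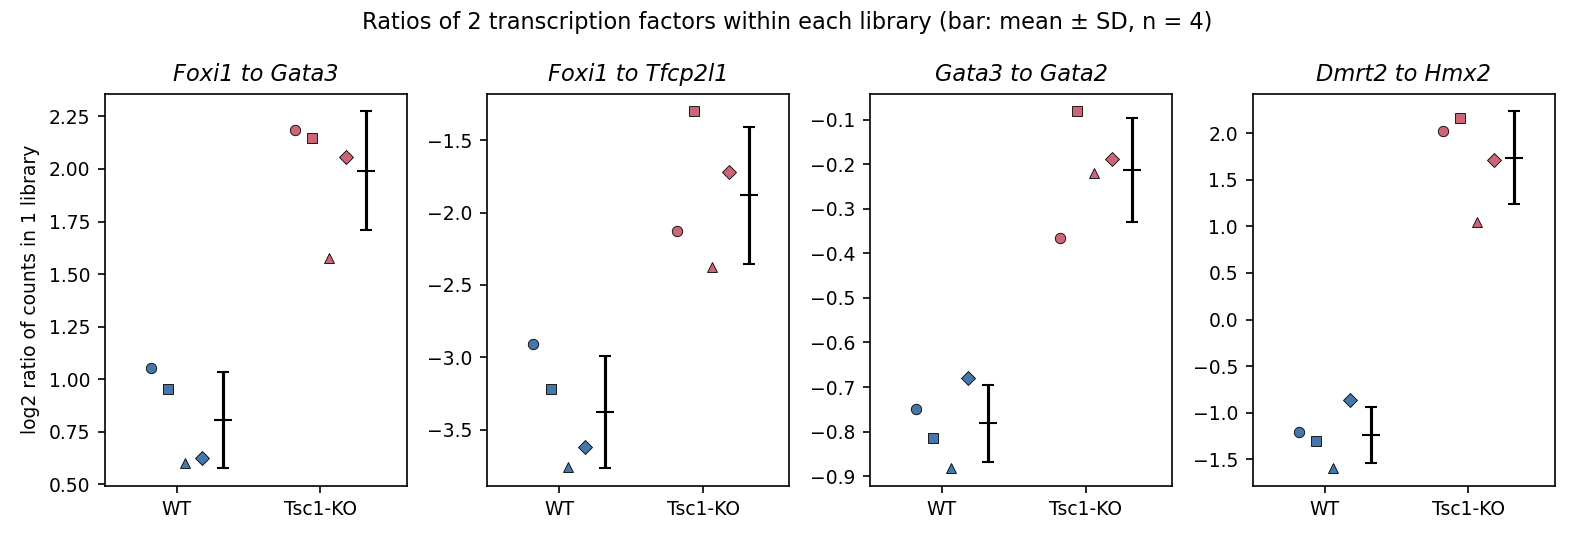
Log2 ratio of the counts of a pair of transcription factors within each library (vertical axis, a separate scale in each panel) for WT (blue) and Tsc1-KO (red), with circle, square, triangle and diamond for WT 1 to 4 and Tsc1-KO 5 to 8 in order and a bar for mean ± SD. All 4 ratios are higher in every Tsc1-KO library, with differences of 1.18, 1.49, 0.57 and 2.98 from left to right.

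Levels of different genes were compared by FPKM, which scales fragments by gene length. In WT kidneys the mean level ran in the order Tfcp2l1 (43.2 ± 4.55 FPKM), Foxi1 (16.9 ± 3.67), Elf3 (11.7 ± 1.88), Gata2 (7.13), Ehf (6.86), Gata3 (5.65), Hmx2 (5.08), Dmrt2 (2.97 ± 0.719), Grhl2 (1.44) and Elf5 (0.994). Neighbors whose WT libraries did not overlap were Tfcp2l1 over Foxi1, Elf3 over Gata2, Hmx2 over Dmrt2 and Dmrt2 over Grhl2, and the other neighbors overlapped. In Tsc1-KO kidneys the order was Foxi1 (63.8 ± 20.0 FPKM), Tfcp2l1 (56.8 ± 7.33), Elf3 (20.7 ± 7.39), Dmrt2 (16.7 ± 6.38), Gata3 (9.26), Ehf (8.47), Gata2 (7.86), Hmx2 (3.48), Grhl2 (2.02) and Elf5 (0.966). Foxi1 and Tfcp2l1 overlapped there, while Tfcp2l1 over Elf3, Gata2 over Hmx2, Hmx2 over Grhl2 and Grhl2 over Elf5 did not. Dmrt2 thus went from below Hmx2 to above it, and the libraries of Foxi1 and Tfcp2l1, which were apart in WT, overlapped in Tsc1-KO. Gata3 was below Gata2 within every WT library and above it within every Tsc1-KO library, although their Tsc1-KO ranges overlapped.

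**Figure D5:**
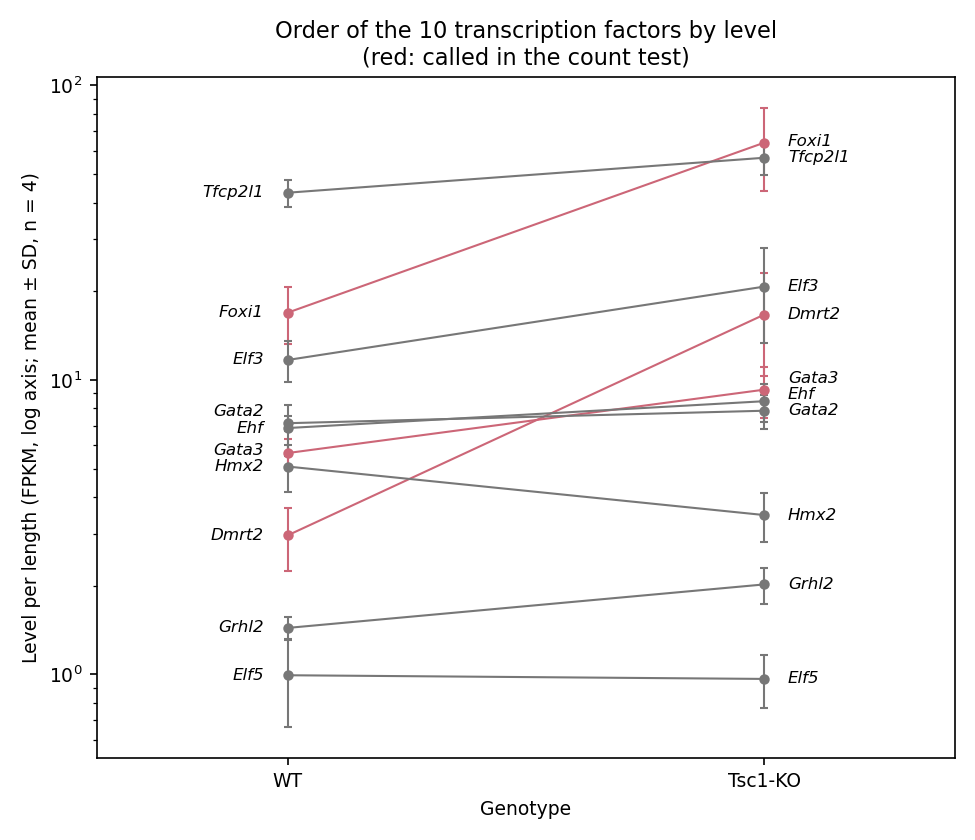
Mean level per length (FPKM on a log axis, with SD over 4 libraries) of the 10 transcription factors in WT and Tsc1-KO kidneys, with lines joining each gene and red for genes called in the count test. Dmrt2 rises from 2.97 to 16.7 FPKM and crosses 4 genes, and Foxi1 rises from 16.9 to 63.8 FPKM to the level of Tfcp2l1.

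Set among the 1064 tested transcription factors by mean FPKM, Foxi1 stood at rank 86 in WT and rank 5 in Tsc1-KO. Dmrt2 went from rank 492 to 88, Tfcp2l1 from 19 to 7, Elf3 from 143 to 66 and Gata3 from 313 to 186. Hmx2 went the other way, from rank 341 to 452, and its log2 change ranked 1020 of 1064 from the top. Of all these transcription factors 30 (2.82%) rose and 6 (0.564%) fell.

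The relatives of the 10 factors were counted in the same way. Of 22 listed paralogs 11 were tested and 1 was called, the ETS gene Elf4, best known from lymphocytes, which rose from 7.21 ± 1.44 to 14.3 ± 2.02 CPM (SD, n = 4 each, log2 change 0.99, edgeR adjusted p = 0.0098). Over the whole families of the 10 factors, chosen for naming after their values were seen, the other calls were Spi1, the ETS factor of myeloid cells (3.25 ± 0.546 CPM for WT against 6.51 ± 1.57 CPM for Tsc1-KO, SD, n = 4 each, edgeR adjusted p = 0.0298), Foxp1, a forkhead factor (log2 change 0.63, adjusted p = 0.0209), and Irx3, a homeobox factor of the nephron (-0.59, adjusted p = 0.0229). Of 9 tested relatives in the zinc finger family of Gata3 and Gata2, 0 were called by edgeR, DESeq2 or limma-voom, with 1 higher and 2 lower at an unadjusted edgeR p under 0.05. Of 4 in the CP2 family of Tfcp2l1 and Grhl2, 0 were called by any of these tools, with 0 at an unadjusted p under 0.05. Hmx3, the paralog of Hmx2 that lies 3847 bases from it, had 0.447 CPM for WT against 0.985 CPM for Tsc1-KO (log2 change 1.13, edgeR adjusted p = 0.258).

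Of the 18 nearest protein-coding neighbors on either side of the 10 genes, apart from the 10 themselves, 17 were tested and 0 were called by edgeR or limma-voom. DESeq2 called 2 higher and 1 lower, and at an unadjusted edgeR p under 0.05 there were 3 higher and 1 lower. The neighbor with the smallest adjusted p was Dock2, a gene of blood cells beside Foxi1, with a log2 change of 1.08 (adjusted p = 0.0631).

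The genes that these factors are known to serve were followed in lists. Of 12 other A-type intercalated cell genes 10 rose and 0 fell, with a median log2 change of 1.08. Their summed level was 659 to 804 CPM for WT against 1275 to 2102 CPM for Tsc1-KO, so the genotypes were apart as they were for Foxi1 and Dmrt2. Adgrf5, an adhesion receptor gene, rose from 117 ± 15.6 to 348 ± 56.8 CPM (SD, n = 4 each, log2 change 1.58, edgeR adjusted p = 0.000164). Atp6v0d2, a subunit of the proton pump, rose from 35.6 ± 6.05 to 182 ± 53.7 CPM (SD, n = 4 each, log2 change 2.35, edgeR adjusted p = 0.000312). Slc26a7, a chloride and bicarbonate transporter gene on the same list, had a log2 change of -0.78 (edgeR adjusted p = 0.212). Some genes of this list were named by the study from these same kidneys, so the count is not independent evidence of its direction.

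Of 9 genes shared by A-type and B-type intercalated cells 1 rose, with a median log2 change of 0.26. It was Oxgr1, the receptor of alpha-ketoglutarate known from B-type cells, which rose from 28.1 ± 3.38 to 67.8 ± 11.4 CPM (SD, n = 4 each, log2 change 1.27, edgeR adjusted p = 0.000446). Of 5 B-type genes 1 rose, Spink8, a protease inhibitor gene, from 11.7 ± 3.67 to 106 ± 43.2 CPM (SD, n = 4 each, log2 change 3.19, edgeR adjusted p = 0.002). The defining B-type exchangers Slc26a4 (log2 change 0.03, adjusted p = 0.959) and Slc4a9 (-0.14, adjusted p = 0.701) overlapped between genotypes. The summed level of the B-type list was 269 to 361 CPM for WT against 297 to 440 CPM for Tsc1-KO.

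Of 12 tested principal cell genes, for which Elf5, Gata2 and Gata3 are known regulators, 1 rose (2 with DESeq2) and 2 fell, with a median log2 change of 0.06. Scnn1g, a subunit of the epithelial sodium channel, had a log2 change of 0.48 (edgeR adjusted p = 0.0391), and Scnn1a, another subunit, of 0.56 (adjusted p = 0.0605). Kcne1, a potassium channel subunit also known from the proximal tubule of the mouse, fell from 24.4 ± 4.40 to 11.5 ± 3.27 CPM (SD, n = 4 each, log2 change -1.09, edgeR adjusted p = 0.0136). Fxyd4, a regulator of the sodium pump, had a log2 change of -0.69 (adjusted p = 0.0249). The defining marker Aqp2 overlapped between genotypes, at 441 ± 117 CPM for WT against 477 ± 66.0 CPM for Tsc1-KO (log2 change 0.11, edgeR adjusted p = 0.825). The summed level of the list overlapped, with 1409 to 2043 CPM for WT against 1629 to 2054 CPM for Tsc1-KO.

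Of 12 genes of Notch signaling between both cell types 0 were called by edgeR, DESeq2 or limma-voom, and 0 had an unadjusted edgeR p under 0.05, with a median log2 change of 0.05. Among 22 other tested transcription factors of the ureteric bud and distal epithelium, 0 rose and 2 fell (1 and 3 with DESeq2, and 5 and 4 at an unadjusted edgeR p under 0.05), Irx3 and Hnf4a (log2 change -0.59, edgeR adjusted p = 0.0497), the latter a factor of the proximal tubule. Proximal tubule markers summed to 15171 to 16234 CPM for WT against 8797 to 12492 CPM for Tsc1-KO, with 3 of 9 lower (6 with DESeq2, 3 with limma-voom), 0 higher by any of these tools, 0 higher at an unadjusted edgeR p under 0.05 and a median log2 change of -0.52. This shift went with genotype in the same libraries, and its part in the CPM of the 10 factors was not tested.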

How the data were processed

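Total kidney RNA of 8 libraries, 4 WT and 4 Tsc1-KO grouped by the genotype in their labels, was selected for poly(A) and sequenced on an Illumina HiSeq system. The deposited table holds raw read counts per gene made by the authors (HISAT2 2.0.4 and HTSeq 0.9.1 stand in the submitters' notes) and FPKM values that the authors scaled by gene length and library total. The build is not given in the sources used here. Columns with group means, the log2 fold change and p-values of the authors' own comparison were not used, nor were sheets that repeat its rows.

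Counts were tested in R 4.3.3 with data.table (1.17.8) and edgeR 4.0.16. Genes were kept by filterByExpr (minimum count 10), libraries were scaled by TMM, genotype was tested by the quasi-likelihood test with robust dispersion, and two-sided p-values were adjusted by Benjamini-Hochberg over all 18048 genes kept. The 12539 other genes held 0.116% of counts. DESeq2 1.42.0, limma 3.58.1 (voom, and log2 of FPKM plus a pseudocount of 0.1 or 1), other scalings, no filter, a term for Y-linked reads, either kind of library alone and each library left out were alternatives. Ratios used counts plus 0.5 (5 as the alternative) and exact permutation tests. The edgeR test was tested on simulated data.

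The 10 genes, lists and pairs were chosen with earlier results of these data known. Genes named beyond them were Tsc1, defining markers, nearest and overlapping genes and, per list, up to 4 with the smallest adjusted p. Others are said in the text to have been named after their values were seen. Slc26a7, Cd8a, Spp1 and Havcr1 were also named after that. Some genes that qualified are not given.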

Additional observations from a re-analysis of the deposited data

How the results depend on the processing

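No paired analysis was possible because WT libraries are numbered 1 to 4 and Tsc1-KO libraries 5 to 8, so the genotypes share no number. The number of the 10 factors called higher was 3, and it was 6 with library totals alone, 6 with DESeq2, 0 with only the libraries with Y-linked reads, and 2 to 5 when 1 library was left out (5 without Tsc1-KO 7); 0 were called lower in any of the 18 alternatives. Over all genes, DESeq2 called 1011 higher and 529 lower, the term for Y-linked reads gave 317 lower, only libraries with Y-linked reads gave 35 higher and 23 lower, only those without gave 248 and 110, and leaving out 1 library gave 321 to 833 higher and 107 to 373 lower. Library totals alone called 904 higher and 154 lower over all genes. They shifted the median log2 change of all genes to 0.10 and the higher share of calls from 75.1% to 85.4%. This share was 65.6% with DESeq2 and 60.3% with only libraries with Y-linked reads.

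Signs turned for Elf5 (0.0681 with library totals, 0.0258 with limma-voom, 0.0203 with the Y term, 0.39 with only libraries with Y-linked reads, -0.23 to 0.14 without 1 library) and for Tsc1 (0.0364 with library totals, 0.0043 with only libraries without those reads, -0.21 to 0.0949 without 1 library). Foxi1 and Dmrt2 were called in 17 of 18 alternatives and Gata3 in 14. The 4 ratios kept their direction in all 48 alternative values, with no test where 1 library was left out or only 4 were used. Why calls moved was not tested, and the fits that left libraries out also rested on fewer libraries. With 4 libraries for each genotype, the Elf5 interval of -0.60 to 0.55 does not exclude changes of the size of Grhl2.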
